A study of Mus musculus with 4 samples.

Results

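The neurons described here were the 55 nuclei that the authors' annotation placed in the neuronal cluster named Cartpt/Arhgap28, out of 39461 nuclei that passed their quality filters. They were set against the 12484 other nuclei annotated as neurons, and made up 0.439% of all neurons. Membership came from the deposited cluster annotation, which was built from the expression of the same nuclei, so differences between the cluster and other neurons are descriptions and carry no test. The study named neuronal clusters after their strongest marker genes in the same nuclei. The ranks of the label genes therefore describe the cluster and do not test its name. Among 134 neuronal clusters, Arhgap28 was highest in this one, and Cartpt was second to the Cartpt/Postn cluster.

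Single-nucleus RNA sequencing was done on a piece of mouse hindbrain that held the area postrema and the nucleus tractus solitarius, in 2 groups with 2 libraries each. AgRP-Gq;POMC-Gi mice carried AgRP-IRES-Cre with the Cre-dependent excitatory receptor hM3DGq, and POMC-Dre with the Dre-dependent inhibitory receptor hM4DGi, all heterozygous. The labels call the control mice WT. Per the study's methods, they lacked both recombinases and, like the other group, carried both unrecombined receptor alleles, hM3DGq fl/- and hM4DGi fl/-. Both groups received clozapine-N-oxide (CNO), the ligand of these receptors, at 3 mg per kg into the peritoneum and were killed 1 h later, without food in between. All were 12 to 20 weeks old, both sexes were used, and tissue was pooled from 2 mice per group. Which mice went into which library was not given in the sources used here, so p-values measure the spread between libraries. How far that spread is technical is not known. The AgRP-Gq;POMC-Gi libraries differed in X- and Y-linked transcripts (below), so they did not hold the same mix of mice. The study describes AgRP and POMC neurons of the arcuate nucleus of the hypothalamus, a region outside this tissue. It detected Cre only in AgRP and Dre only in POMC neurons. Whether cells with either recombinase also lie in this hindbrain tissue was not tested here. Each receptor can be present in any cell that uses the Agrp or the Pomc locus, and direct and relayed effects of CNO cannot be told apart here.

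The libraries held 6 and 7 members in the controls and 19 and 23 in AgRP-Gq;POMC-Gi, with 49984, 47961, 157602 and 222734 UMIs, and 1 UMI was worth 20.0, 20.9, 6.35 and 4.49 counts per 1000000 UMIs (CPM). Values below follow this order of libraries. Some transcripts separated libraries rather than groups. Ttr, the main transcript of the choroid plexus, had 0, 92, 0 and 129 UMIs, in every member of both replicate 2 libraries and in none of replicate 1. Xist, the transcript of the inactive X chromosome, had 37, 16, 67 and 0 UMIs, and the Y-linked Uty had 0, 4, 4 and 47. Of 6 sex-linked genes compared between groups in edgeR, 0 passed an adjusted p of 0.05. An unadjusted p under 0.05 was found for 2 (Eif2s3y and Ddx3y), both higher in AgRP-Gq;POMC-Gi, and for 4.4% of all tested genes. The part of sex in the values between groups was not tested. In all, 168 barcodes were kept in more than 1 library, and 1 of them belonged to these 55 nuclei.

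The nucleus tractus solitarius receives vagal signals from the gut and takes part in the control of meals. Cartpt encodes the precursor of the CART peptides, which lower food intake when given into the brain. Arhgap28 encodes a GTPase-activating protein.

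Upstream sequence of both label genes is shown because these genes name the cluster. In the Cartpt promoter (RefSeq, GRCm38.p6) the cAMP response element TGACGTCA, in capitals, occurred once, 112 bases before the start, within chr13:99900777-99900806 on the minus strand. The stretch is kept to this site because GENCODE M21 places it in the 5′ UTR of a longer Cartpt transcript.
Cartpt: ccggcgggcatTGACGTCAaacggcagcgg
The stretch of Arhgap28 is chr17:68004121-68004358 on the minus strand, and leaves out the 12 bases nearest the start, which are annotated as UTR. Capitals mark GGGCGTGG, searched on both strands after the sequence had been read.
Arhgap28: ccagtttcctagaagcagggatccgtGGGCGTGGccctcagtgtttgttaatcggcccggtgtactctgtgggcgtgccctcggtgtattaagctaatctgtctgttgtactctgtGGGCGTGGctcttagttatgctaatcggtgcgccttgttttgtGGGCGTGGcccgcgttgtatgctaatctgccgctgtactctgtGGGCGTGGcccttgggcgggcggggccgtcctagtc
Of 32851 mouse promoters searched over 250 upstream bases, 1.55% held TGACGTCA and 4.79% held GGGCGTGG. The latter occurred 4 or more times in 9 promoters, this one of Arhgap28 included, and not at the other annotated Arhgap28 start. These matches describe letters and show no binding.

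Arhgap28 was measured at 240.1, 83.4, 222 and 274 CPM, from 12, 4, 35 and 61 UMIs. Control replicate 2 was lowest, and all libraries lay far above other neurons. The mean was 205 ± 83.8 CPM (SD, n = 4 libraries) against 2.83 ± 0.469 CPM in other neurons, 72.4 times as high. The clusters next in order were Cpne4/Trhde at 69.8 CPM and Cnpy1/Adamts18 at 55.9 CPM. The 55 nuclei held 13.5% of all neurons with an Arhgap28 UMI and 23.9% of the neuronal Arhgap28 UMIs.

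Cartpt was measured at 380.1, 500.4, 222 and 292 CPM, from 19, 24, 35 and 65 UMIs. The mean was 349 ± 120.1 CPM against 15.0 ± 5.56 CPM in other neurons. It was below the Cartpt/Postn cluster (1086 CPM) and above the Gfral/Sctr cluster (132 CPM), and its lowest library lay above the highest library of Gfral/Sctr (162 CPM). A Cartpt UMI was found in 40 of the 55 nuclei (72.7%, exact 95% interval 59.0% to 83.9%), against 5.05% of other neurons and 1.62% of oligodendrocytes. Median depths were 7601, 8708 and 2460 UMIs. After every nucleus was thinned to 2000 UMIs, which left out 166 other neurons and none of the 55, the shares were 49.1% and 1.96%.

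**Figure D1:**
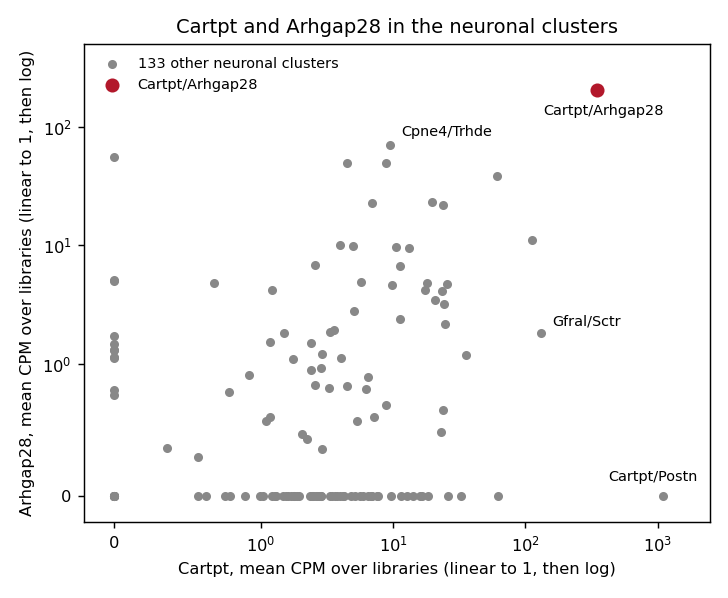
Each point is 1 of 134 neuronal clusters, with the mean Cartpt level over libraries on the x axis and the mean Arhgap28 level on the y axis, in CPM, linear to 1 and logarithmic above. The Cartpt/Arhgap28 cluster, in red, stands at 349 and 205 CPM, and no other point has both genes above 50 CPM. The Gal/Dkk2 cluster, at 61.1 and 38.6 CPM, also lies above the medians of 2.91 and 0.396 CPM over the 134 clusters.

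Both label genes were found together in 27 of the 55 nuclei, Cartpt without Arhgap28 in 13, Arhgap28 without Cartpt in 10 and neither in 5. At this depth a nucleus with no UMI of a gene was not shown to lack it. A Cartpt UMI occurred with a Tac1 UMI in 28 nuclei and with a Gal UMI in 14, and Tac1 with Gal in 9. Of these 3 peptide genes, 8 nuclei held all, 27 held 2, 17 held 1 and 3 held none.

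Tac1, the precursor of substance P and neurokinin A, was measured at 340.1, 396, 184 and 301 CPM, a mean of 305 ± 89.8 CPM against 16.9 ± 0.584 CPM in other neurons. The Qrfpr/Tac1 cluster was at 309 CPM, within this spread, and Tac1/Tafa2 followed at 200.2 CPM. Gal, the precursor of galanin, had 7, 3, 18 and 30 UMIs, a mean of 113 ± 35.3 CPM against 11.4 CPM. The Gal/Dkk2 cluster held the most at 453 CPM, and Tfap2b/Cntnap5b, just above at 128 CPM, was within the spread. Of 40 neuropeptide precursor genes, 23 had a UMI in these neurons and 17 had none, while 15342 of all 32285 genes had one. Nucb2, the precursor of nesfatin, was at 57.1 ± 45.5 CPM against 18.7. The glucagon gene Gcg and Prlh, the prolactin-releasing hormone gene, had 0 UMIs in 55 nuclei, which allows a share of nuclei with a UMI of up to 5.45%, taken as 3 nuclei of the 55. Agrp had a UMI in 32 nuclei and in 50.8% of other neurons, so it did not set these neurons apart, and Pomc had a UMI in 6. The source of these reads, and whether such nuclei held a receptor, were not tested.

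The 20 leading genes were those with the highest log2 ratio to other neurons, after 5 CPM had been added to both, among genes found in at least 25% of the 55 nuclei. All 20 were above other neurons in all 4 libraries. Abi3bp, a gene of the extracellular matrix, was at 80.0, 396, 508 and 328 CPM against 17.1 CPM in other neurons, and was lowest in control replicate 1, from 4 UMIs. Il1rapl2, an X-linked synaptic adhesion gene, was the most abundant at 3601, 3315, 5374 and 3421 CPM against 424 CPM. Dlk1, an imprinted gene of the Notch ligand family, was at 187 ± 80.6 CPM against 15.5, and Asb4, also imprinted, at 56.6 ± 12.8 CPM against 2.77. The synaptic vesicle gene Synpr reached 675 ± 183 CPM against 91.0.

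Bche, which encodes butyrylcholinesterase, was at 340.1, 146, 82.5 and 94.3 CPM against 9.19 CPM in other neurons. It was higher in both controls than in both AgRP-Gq;POMC-Gi libraries, and in 36.4% of tested genes the groups likewise did not overlap. A Bche UMI was also found in 14.3% of oligodendrocytes, against 6.2% of other neurons. All 6 oligodendrocyte markers had UMIs in the 55 nuclei, and their summed level was 200.1, 188, 184 and 153 CPM against 76.4 to 157 CPM in other neurons. The collagen gene Col6a2 (53.0 ± 34.4 CPM against 2.91) was another leading gene. Of 4 fibroblast markers, Col1a1 and Lum had no UMI, and the sum was 40.0, 0, 12.7 and 18.0 CPM against 2.91 to 9.13 CPM in other neurons. The summed level of 5 neuron markers was 1180, 2669, 1821 and 1670 CPM, below the 2833 to 2876 CPM of other neurons in every library. The part of other cells in these levels was not tested.

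Of the 20 leading genes, 10 were higher here than in any other neuronal cluster. For Arhgap28 and Bche no other cluster reached 50% of the mean level over libraries. For Bche that mean was 166 CPM, with 340.1 CPM in control replicate 1. The next cluster, Col12a1/Tnc at 69.9 CPM, was nearer to the 82.5 and 94.3 CPM of the AgRP-Gq;POMC-Gi libraries. On the log2 scale Lypd6, the last of the 20, had 2.45 and Scn7a, the next gene, 2.43. Arhgap28 (chr17:67842713-68004120, minus strand) and L3mbtl4, a chromatin protein gene that also led, lay 269.7 kb apart. On chromosome 3, Bche (chr3:73635808-73708415, minus strand) lay within 1 Mb of the long noncoding RNA genes 4930509J09Rik (847 ± 309 CPM against 108) and Gm20754 (1294 ± 287 against 176). These noncoding genes overlap on opposite strands and are uncertain, since reads of one may count for the other.

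**Figure D2:**
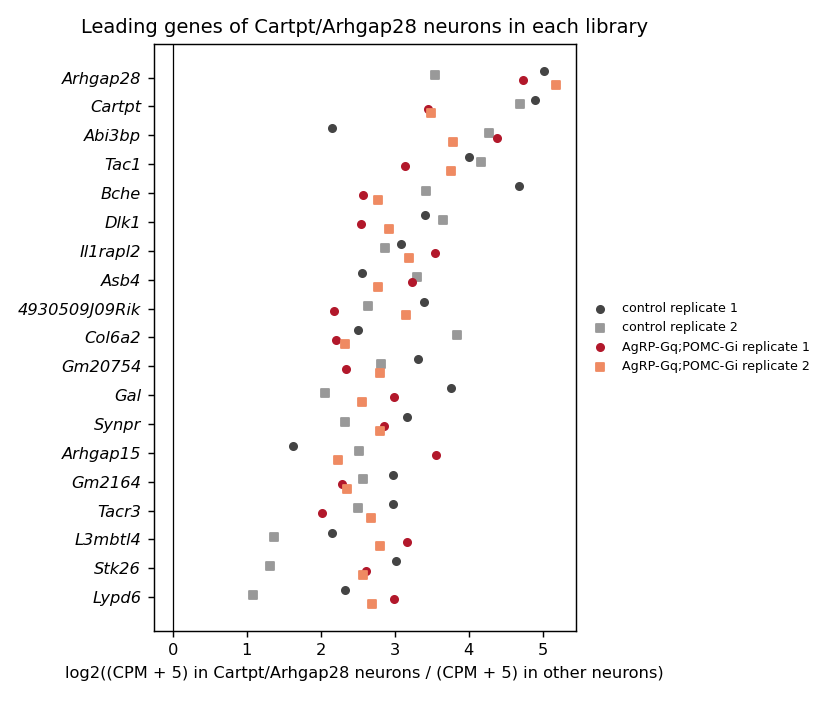
Rows are 19 of the 20 leading genes, points are the 4 libraries, and the x axis is the log2 ratio of these neurons to other neurons with 5 CPM added to both. All points lie to the right of 0, and Lypd6 in control replicate 2, from 1 UMI, lies nearest to it.

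Slc17a6, which encodes the vesicular glutamate transporter VGLUT2, was found in 34 nuclei at 200.1, 83.4, 139.6 and 148 CPM against 75.7 ± 3.21 CPM in other neurons, and 29 clusters had more. Slc17a7 and Slc17a8 had no UMI. Gad2, a GABA-making enzyme, was found in 16 nuclei at 120.0, 104, 38.1 and 58.4 CPM against 95.5 CPM in other neurons. Of these 16 nuclei, 14 also held Slc17a6. After thinning, Gad2 was found in 14.5% of these nuclei and 15.9% of other neurons, and Slc17a6 in 25.5% and 12.8%. The other GABA genes were lower. Gad1 and the vesicular transporter gene Slc32a1 were each found in 2 nuclei, at 3.83 and 2.71 CPM against 50.8 and 27.2 CPM. The glycine transporter gene Slc6a5 was at 14.3 CPM against 83.5. Dbh, the enzyme that makes noradrenaline, was found in 6 nuclei (13.3 ± 9.43 CPM against 1.32), and Th, which starts catecholamine synthesis, in 3.

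**Figure D3:**
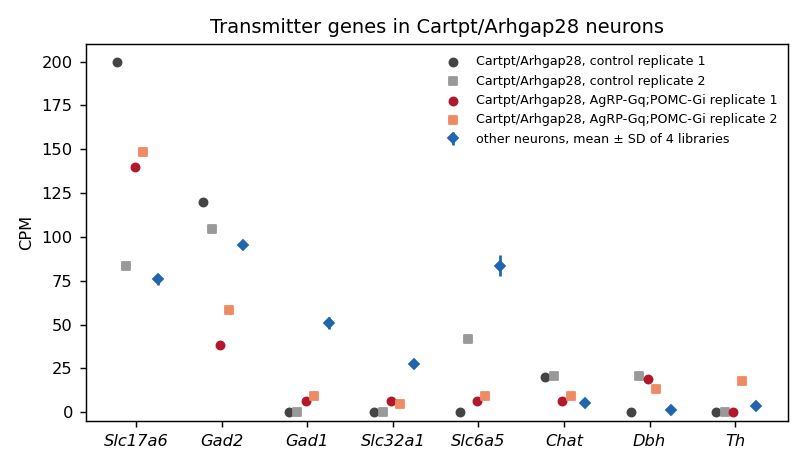
Points are the Cartpt/Arhgap28 neurons in each library and blue diamonds are other neurons (mean and SD of 4 libraries), with CPM on the y axis. Slc17a6 and Gad2 stand highest, and Gad1 and Slc32a1 lie under 10 CPM in every library.

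Of 53 hindbrain lineage factors, 27 had a UMI in these neurons and 26 had none, while 15342 of all 32285 genes had one. Phox2a, a homeobox factor, had 9 UMIs in 8 nuclei, 19.9 ± 4.91 CPM against 0.42 in other neurons, and the next cluster was at 11.5 CPM. Tlx3 (26.1 against 4.19 CPM), Lmx1b (53.0 against 15.9 CPM) and Pou3f1 (24.0 against 1.84 CPM), factors of neuron specification, were also above other neurons. Ebf1 was lower, at 88.4 CPM against 531.

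Among the 10 genes with the lowest log2 ratio to other neurons (5 CPM added to both), among genes found in at least 25% of those, Stxbp6 and Pax2, a factor of inhibitory neuron precursors, had 0 UMIs, while 30.7% and 26.6% of other neurons held one. Nfib, of the nuclear factor I family, was found in 1 nucleus and 25.9% of other neurons, and Ebf3 in 1 nucleus and 32.6%. Nxph1 (74.5 ± 66.0 CPM against 819) and Gpc6 (59.9 ± 40.8 CPM against 660.3) were low but present.

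Among receptors, Oprm1, the mu-opioid receptor gene, was at 460.1, 479.6, 387 and 278 CPM against 105 CPM in other neurons. It was higher than in any other cluster, but Qrfpr/Tac1 at 387 CPM was within the spread. Tacr3, the neurokinin B receptor gene, was at 86.4 ± 17.1 CPM against 10.5, and the adrenoceptor gene Adra1a at 135 ± 66.8 CPM against 42.1. Gfral, the receptor of GDF15, was found in 7 nuclei at 26.9 ± 10.5 CPM, against 316 CPM in the Gfral/Sctr cluster. The calcitonin receptor gene Calcr had no UMI. The cation channel gene Trpm3 reached 3767 ± 455 CPM against 751, and the kainate receptor gene Grik2 reached 4149 ± 878 CPM against 1505. The serotonin receptor gene Htr2c (178 CPM against 737) and the glutamate receptor gene Grm7 (655 CPM against 1820.3) were lower than in other neurons.

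By Pearson's r of log2(CPM + 10) over 12115 genes, the most similar clusters were Gal/Dkk2 (r = 0.922), Tafa2/Pde1a (0.915) and Eya1/Hs3st4 (0.908), against a median of 0.867 over all other clusters. The correlation is across genes, which are not independent, and all clusters share the same libraries. Of the 20 leading genes, 7 exceeded 50% of their level in Gal/Dkk2, among them Gal, Synpr and Stk26. Gal/Dkk2 also held both label genes at rank 6 of the 134 clusters, Cartpt at 61.1 CPM and Arhgap28 at 38.6 CPM. Cartpt/Postn held Cartpt and Gm2164 above 50% of their level here, and had no Arhgap28 UMI.

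The groups were compared to ask whether these neurons respond to combined activation of AgRP and silencing of POMC neurons. Their share among neurons was 0.243% and 0.256% in the controls and 0.514% and 0.632% in AgRP-Gq;POMC-Gi. Both AgRP-Gq;POMC-Gi libraries lay above both controls, as in 33 of the 134 neuronal clusters (24.6%). Means were 0.249% ± 0.00915 and 0.573% ± 0.0837 (SD, n = 2), a ratio of 2.30, and 7 clusters had a higher ratio. An exact two-sided permutation test gave p = 0.33, the smallest value that 2 against 2 libraries allow. A quasi-likelihood fit in edgeR over nuclei per neuronal cluster, added after the data had been seen, gave a log2 fold change of 1.19 ± 0.66 (SE) and an adjusted p = 0.651, and called no cluster. It called 4 clusters without AgRP-Gq;POMC-Gi replicate 2 and 2 without control replicate 2, and Cartpt/Arhgap28 was not among them. Neurons were 25.4% and 27.2% of kept nuclei in the controls and 38.0% and 36.5% in AgRP-Gq;POMC-Gi. The part of dissection and nuclear recovery in these shares was not tested.

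**Figure D4:**
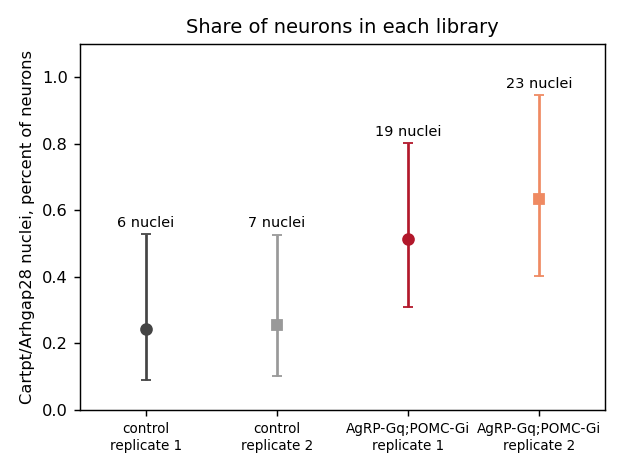
The y axis is the percent of neurons in the Cartpt/Arhgap28 cluster in each library, with exact 95% binomial intervals for counting error. The AgRP-Gq;POMC-Gi libraries, at 0.514% and 0.632%, lie above the controls, and all 4 intervals share a range.

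Of 11622 genes tested within these neurons, 0 (0%) passed an adjusted p of 0.05 between groups in edgeR's quasi-likelihood test, and 511 (4.4%) had an unadjusted p under 0.05. DESeq2 called 0 genes, with 50 at an unadjusted p under 0.05. Without control replicate 1, edgeR called 52 genes, and without control replicate 2 it called 7. Of the 511 genes, 421 were higher and 90 lower in AgRP-Gq;POMC-Gi with TMM scaling (edgeR's trimmed mean). Of the 421, 132 had 0 UMIs in both controls. These passed the filter on detection (a UMI in 5% or more of the nuclei) only through AgRP-Gq;POMC-Gi nuclei, which fixes their direction. Of all tested genes, 1382 had no UMI in the controls and 18 had none in AgRP-Gq;POMC-Gi. Without TMM scaling, 221 genes with an unadjusted p under 0.05 were higher and 267 lower. The median log2 fold change of all tested genes was then -0.04 in place of 0.30, so fold changes below are read against 0.30. In 36.4% of tested genes the 2 groups did not overlap. In other neurons 0 of 12109 genes were called by edgeR, and 666 (5.5%) had an unadjusted p under 0.05. There DESeq2 called 10, and without AgRP-Gq;POMC-Gi replicate 2 edgeR called 2276. The test of whether the group difference itself differed between these and other neurons called 0 genes, with 498 (4.28%) at an unadjusted p under 0.05, and 40 genes without control replicate 1 and 7 without control replicate 2.

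The genes with the smallest unadjusted p in each direction all had an adjusted p = 0.892 in edgeR and are given for their values. Pbx3, a homeobox factor, was read at 0, 0, 17 and 24 UMIs, which came from 15 nuclei. It passed the filter on detection only through AgRP-Gq;POMC-Gi nuclei, which fixes its direction. Its AgRP-Gq;POMC-Gi level lay 3.52-fold above a floor of 3 UMIs over the control group, which leaves out the counting error of the AgRP-Gq;POMC-Gi UMIs. The exact 95% counting interval of the ratio began at 2.74. Other neurons held 291 CPM of Pbx3 in the controls and 343 CPM in AgRP-Gq;POMC-Gi. Rarb, a retinoic acid receptor, was at 180.1, 146, 419 and 435 CPM, a log2 fold change of 1.72 ± 0.41 (SE), against 0.67 ± 0.07 in other neurons. Dner, a Notch-related neuronal gene, was at 80.0, 41.7, 197 and 269 CPM. A330015K06Rik and Ubxn4 had log2 fold changes of 1.84 and 2.51, the second from 3 control UMIs.

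In the other direction, Mgp, a matrix gene of vessel and connective tissue cells, had 5, 3, 0 and 0 UMIs. A floor of 3 UMIs over AgRP-Gq;POMC-Gi lay 10.4-fold below its control level, which leaves out the counting error of the control UMIs. The exact 95% counting interval of the ratio ended at 0.151. Its control UMIs came from 1 and 2 nuclei. Mgp passed the filter on detection only through these, which fixes its direction. The summed level of 5 endothelial and mural markers, of which 4 had a UMI, was 140.0, 20.9, 6.35 and 8.98 CPM against 8.36 to 15.3 CPM in other neurons, and its part in the Mgp difference was not tested. Carmil1, an actin regulator, was at 380.1, 417, 108 and 144 CPM, and Dnajb6 and Srsf6 had log2 fold changes of -1.50 and -2.89.

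**Figure D5:**
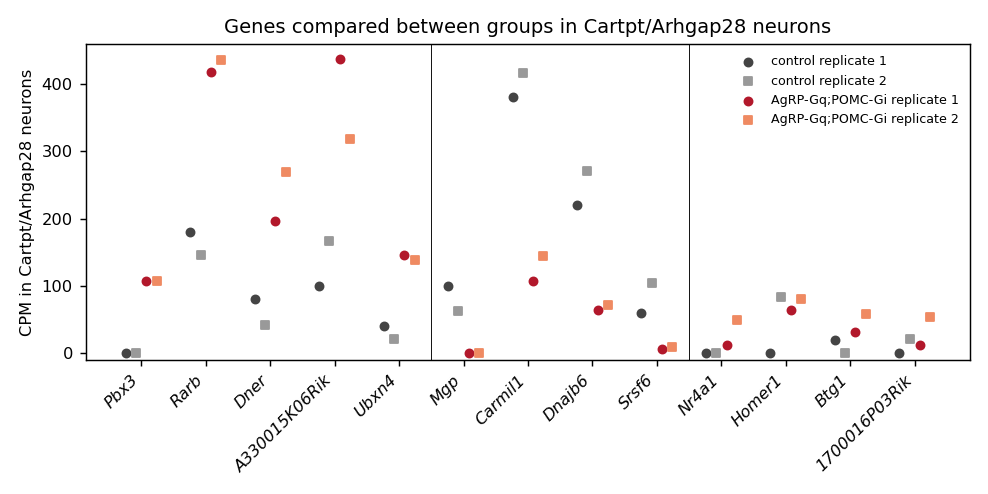
CPM in the 4 libraries is shown for 9 of the genes with the smallest unadjusted p, higher (left block) or lower (middle block) in AgRP-Gq;POMC-Gi, and for 4 immediate early genes (right block). Pbx3 is at 0 in both controls and at 108 CPM in both AgRP-Gq;POMC-Gi libraries, and none of these genes passed the test.

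Of the genes that mark the neurons, none differed past the test. Cartpt was lower in both AgRP-Gq;POMC-Gi libraries than in both controls, with a log2 fold change of -0.42 ± 0.36 (adjusted p = 0.892 in edgeR). Tac1 had -0.24 ± 0.39, Arhgap28 0.94 ± 0.48 and Gal 0.63 ± 0.53. Without control replicate 1 Arhgap28 was at 1.95 and Gal at 1.37, and without control replicate 2 they were at 0.35 and 0.14. Of 11 tested receptors for feeding hormones and descending peptides, 0 were called and 2 had an unadjusted p under 0.05, as had 4.4% of all tested genes. These were Hcrtr2 and Glp2r. Glp2r had 0, 0, 3 and 8 UMIs, and its pooled 28.9 CPM in AgRP-Gq;POMC-Gi lay below the 30.6 CPM that 3 UMIs are worth in the controls, so no fold is given. It passed the filter on detection only through AgRP-Gq;POMC-Gi nuclei, which fixes its direction. Of the 11 receptors, 3 (27.3%) had no UMI in either control, as had 11.9% of all tested genes. Hcrtr2, an orexin receptor gene, was at 80.0, 62.6, 190.4 and 216 CPM, a log2 fold change of 1.83 ± 0.51 (adjusted p = 0.892 in edgeR) against 0.16 ± 0.12 in other neurons. Of 15 genes of peptide processing, 0 were called. Pam, the enzyme that amidates peptides, was at 540.2, 271, 704 and 867 CPM. Of 14 tested neuropeptide precursors, 0 were called, and 4 had log2 fold changes above 0, as had 7072 of all 11622 tested genes with TMM scaling and 5680 without it.

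Immediate early genes, which neurons switch on soon after activity, were sparse. The study picked 10 of them as markers of activity, and whether it picked them on these samples is not stated, so their direction is not independent evidence. Of the 10, 7 passed the filter on detection and 0 were called. Of these 7, 4 (Fos, Jun, Junb and Nr4a1) had no UMI in either control, as had 11.9% of all tested genes. They passed the filter only through AgRP-Gq;POMC-Gi nuclei, which fixes their direction, so nothing is read from the signs of the 7. Gem, which the filter removed, had its 1 UMI in a control, and Fosl2 and Nr4a3, also removed, had 1 UMI each, in AgRP-Gq;POMC-Gi replicate 2. Nr4a1 had 0, 0, 2 and 11 UMIs, and the exact 95% counting interval of its ratio began at 0.785. Homer1, a synaptic scaffold gene, had 0, 4, 10 and 18 UMIs, a ratio of 1.80 (exact 95% interval 0.631 to 7.07), and its fitted log2 fold change of 1.15 became 0.19 without control replicate 1 and 6.45 without control replicate 2. Btg1 had 1, 0, 5 and 13 UMIs, 1700016P03Rik had 0, 1, 2 and 12, and Fos had 0, 0, 1 and 2. With 97945 UMIs in all 13 control nuclei, counting intervals of these 5 genes included a ratio of 1. Of 36 other activity-induced genes, 13 were tested and 0 called, 8 with log2 fold changes above 0 and 5 below, and 4 of the 13 had no UMI in either control. Their median log2 fold change was 0.62 as fitted, against 0.30 for all tested genes. With genes at 0 UMIs in a group set to the bound from a floor of 3 UMIs, these medians were -0.49 and -0.01. For a gene at 0 in the controls this bound is negative where its AgRP-Gq;POMC-Gi level lies under the floor. The value of -0.49 therefore shows no decrease. Of 3 members chosen after their values were seen, Crem had 7, 1, 4 and 10 UMIs, a ratio of 0.451 (exact 95% interval 0.176 to 1.24), and Bdnf had 7, 1, 9 and 10 UMIs, a ratio of 0.612 (0.256 to 1.62). Egr2 had 6 UMIs in 5 nuclei, and its 12.2 ± 9.67 CPM was the highest of the clusters.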

How the data were processed

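Nuclei from dissected hindbrain were sorted and sequenced with a 10x Genomics 3′ kit in 4 libraries. Per the authors, reads were mapped to GRCm38 (mm10) and counted with Cell Ranger 7.0.0, and nuclei with under 800 UMIs, under 500 genes or over 10% mitochondrial RNA were removed in Seurat 4.3.0. The study names a doublet caller; no further doublet removal was done here. Clusters came from an scVI embedding trained without immediate early genes. The deposited matrices held raw UMI counts, and the deposited table held counts and the percent of mitochondrial RNA per nucleus, with cluster and cell type. Scores of the study's own comparison were not used.

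UMI counts were summed per library, and CPM computed from all summed UMIs. Genes found in 5% or more of the nuclei were tested with edgeR 4.0.16 (quasi-likelihood, TMM, Benjamini-Hochberg) in R 4.3.3; DESeq2 1.42.0 was an alternative. The SE beside an edgeR log2 fold change is its absolute value divided by the square root of the test's F statistic. It is not a standard error from the fit. Scripts were tested on simulated data. Positions are from GENCODE M21, promoters from RefSeq. Named genes were the label genes, 20 leading and 10 depleted genes, the smallest p-values between groups and members of fixed lists. Members and lists were chosen with earlier results of these data known. Some genes are not reported here.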

Additional observations from a re-analysis of the deposited data

How the results depend on the processing

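Between groups in the Cartpt/Arhgap28 neurons 0 genes were called, against 2 without TMM factors, 1 with no gene filter and 1 with the replicate block, and 0 to 52 with a library left out. In all other neurons 0 were called, against 1 with no gene filter, 1 with filterByExpr, 10 with DESeq2 and 79 with the replicate block, and 1 to 2276 with a library left out. For the difference between both, 0 were called, against 1 with no gene filter and 0 to 40 with a library left out. Where a library was left out, the lone library of its group was assumed to vary like the other group, and the cause of these counts was not tested. No label says that a replicate number marks a shared batch, so the numbers were not taken as pairs. Deviations of same-numbered libraries correlated at r = -0.014 in these neurons and 0.21 in other neurons, or 0.046 there without Ttr and sex-linked genes. Ttr itself followed the replicate number in both groups. The share ratio of 2.30 ranged from 2.06 to 2.54 with a library left out and was 3.25 over all kept nuclei. Thinning lowered the share of nuclei with a Cartpt UMI from 72.7% to 49.1% and that with an Arhgap28 UMI from 67.3% to 30.9%, by its construction. Log2 fold changes reversed with a library left out for Slc17a6 (-0.17 to 1.16) and Tac1 (-0.61 to 0.015). None of these was called in any setting. In the other 176 of 178 alternatives over 21 genes, direction and side of the threshold were kept, while sizes moved, with a library left out, for Homer1 from 0.19 to 6.45, for 1700016P03Rik from 0.62 to 5.43, for Btg1 from 1.48 to 5.81, for Arhgap28 from 0.35 to 1.95 and for Gal from 0.14 to 1.37. Pbx3, Nr4a1, Fos, Jun, Junb and Mgp had no UMI in a whole group and could not reverse. The genes with the smallest p-values were picked in these same data, and none was called as fitted. The kept directions and sides were thus partly fixed in advance and show no stability. Counts limit the controls most, and intervals and floors cover counting error only.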
